A study of Arabidopsis thaliana with 6 samples.

Results

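Genes of 9 remodelling ATPases and MBD9 are described here, 10 genes of the 38189 in the count files. They were chosen by name, with the results of the comparison of hb34 with wild type already known, so their differences in that comparison are a description with no test. Chromatin remodelling ATPases use ATP to slide, space or remove nucleosomes, the units in which DNA is wrapped around histones. In Arabidopsis thaliana SYD, BRM and CHR12 are ATPases of the SWI/SNF type, CHR11 and CHR17 of the ISWI type and PKL and CHR5 of the CHD type, while INO80 and DDM1 each stand for a type of their own. MBD9 has a methyl-CpG-binding domain and is no ATPase, but it is found with the SWR1 complex, which places the histone variant H2A.Z, and with ISWI proteins.

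RNA was sequenced from Columbia wild type (WT, n = 3) and from the hb34 mutant labelled with the same background (n = 3), both mock-treated at an age of 10 days. Seeds were germinated on Murashige and Skoog medium at 22 °C, with a day of 16 h and a night of 8 h. The mutated gene, HB34, is a homeobox gene of the zinc finger type, and by its title the study asks how that factor balances jasmonate production against defence and growth. The sample labels say leaves where the RNA protocol says seedlings. The sources used here do not give the hb34 allele, nor do they say that replicates are separate pools of plants, so errors and p-values cover the spread between these libraries, which may be technical.

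The 6 libraries held 17562497 to 19670468 counts, and 17905 genes had enough of them to be tested. HB34 stood at 83.3 to 93 CPM, counts put on one scale across libraries with TMM factors, in WT and at 1.02 to 2.27 CPM in hb34. The 5 leaf markers summed to 55300 to 65900 CPM. Of the 5, edgeR called LHCB3 lower in hb34 (log2 fold change -0.45, hb34 minus WT, adjusted p = 0.0378) and 0 higher. With the trend on exon length described below taken out, LHCB3 was at -0.26 and did not pass (edgeR adjusted p = 0.16). Of 8 root markers PHO1 alone could be tested, and 3 had no count anywhere. The 8 summed to 9.01 to 16.7 CPM in WT and 16.2 to 21.1 CPM in hb34. Most of this sum was PHO1, at 8.96 to 16.4 CPM in WT and 15.1 to 19.9 CPM in hb34. PHO1 did not pass (edgeR adjusted p = 0.219), so the sum says little of the other root markers. The part of leaf and root content in the results below was not tested. On the first principal component hb34 replicate 2 lay apart, at 82.1, against 8.53 and 17.6 for the other hb34 libraries and -41.2 to -25.8 for WT. By edgeR's quasi-likelihood test, at a Benjamini-Hochberg adjusted p under 0.05, 675 genes (3.77% of those tested) were higher in hb34 and 447 (2.50%) were lower; with upper quartile scaling the balance turned, to 536 higher and 615 lower. Leaving out WT replicate 1 gave 1 and 2 genes, WT replicate 2 gave 1 and 3, and hb34 replicate 3 gave 274 and 115; fewer genes were lower, 267 and 235, when WT replicate 3 or hb34 replicate 1 was left out.

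In 9 of the 10 genes every hb34 library stood above every WT library, and DDM1 was the exception. The median log2 fold change of the 10 genes, taken as hb34 minus WT throughout, was 0.99, against 0.012 over all tested genes. Groups were apart in this way for 17.8% of all tested genes, and in the opposite way for 17.5%, a way that 0 of the 10 showed. The 10 genes are long, with 2770 (DDM1) to 11171 (SYD) bases of exon, and longer genes were higher in hb34 across the genome. Among the 3052 tested genes in that range of lengths, the 10 included, 44.7% had the groups apart. Their median without the 10 genes was 0.43. Short genes weigh most there, as 1525 other tested genes had 3000 to under 4000 bases and 141 had at least 6000. Each gene is therefore set beside the other tested genes of its exon length class. Over the 10 genes, the median of their class medians was 0.61. In bulk RNA, fewer cells of a type and less RNA per cell cannot be told apart.

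**Figure D1:**
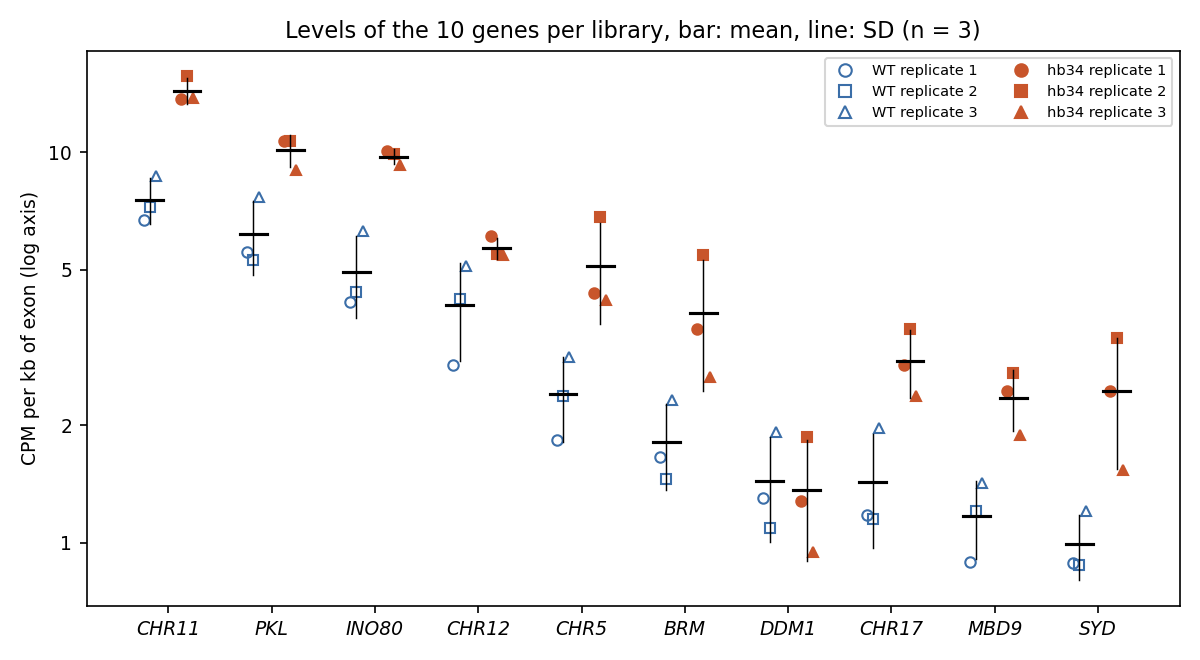
Level of each of the 10 genes in CPM per kb of exon (log axis) in the 3 WT libraries (open symbols) and the 3 hb34 libraries (filled symbols), with the mean as a bar and the SD as a line. The hb34 symbols lie above the WT symbols for 9 genes and overlap them for DDM1, and WT replicate 3 is the highest WT library for all 10.

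SYD and BRM are the large SWI/SNF ATPases, with overlapping roles in meristem and flower development. SYD (gene-AT2G28290, chromosome 2, 12056213 to 12073279, plus strand, 34 exons) was at 9.91, 9.78 and 13.5 CPM in WT replicates 1 to 3 and at 27.4, 37.3 and 17.2 CPM in hb34 replicates 1 to 3. The groups did not overlap, and the hb34 libraries spread widely. The log2 fold change was 1.3 (SE 0.29), while the 141 other tested genes with at least 6000 bases of exon had a median of 0.85. BRM (gene-AT2G46020, chromosome 2, 18922533 to 18932055, plus strand, 15 exons) was at 12.6, 11 and 17.6 CPM in WT and at 26.8, 41.4 and 20.2 CPM in hb34. That is a log2 fold change of 1.1 (SE 0.292), with the same class median. In both genes hb34 replicate 2 was the highest library and hb34 replicate 3 the one nearest to WT. Per base of exon and within a library, SYD stood at 0.553 ± 0.0425 of BRM in WT and at 0.627 ± 0.0594 in hb34 (SD, n = 3 each), with overlapping ranges.

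CHR12, a smaller SWI/SNF ATPase linked to growth arrest under stress, differed less. CHR12 (gene-AT3G06010, chromosome 3, 1802141 to 1807530, minus strand, 12 exons) was at 11, 16.2 and 19.7 CPM in WT and at 23.5, 21.2 and 21 CPM in hb34. The hb34 libraries were close together and just above WT replicate 3. The log2 fold change was 0.49 (SE 0.212), and 0.29 without WT replicate 1; the 1525 other genes with 3000 to under 4000 bases had a median of 0.38. Its near copy CHR23, identical to it at 83.3% of aligned coding positions and not among the 10 genes, averaged 6.38 ± 1.39 CPM in WT against 10.7 ± 0.604 in hb34 (SD, n = 3 each). The log2 fold change of CHR23 was 0.74 (SE 0.193) and did not pass with edgeR (adjusted p = 0.0614). Per base of exon CHR12 was 2.3 ± 0.159 times CHR23 in WT and 1.95 ± 0.193 times in hb34 (SD, n = 3 each), with ranges that touch.

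The ISWI ATPases CHR11 and CHR17 space nucleosomes along genes and act together in the change from leaf to flower formation. CHR11 (gene-AT3G06400, chromosome 3, 1940907 to 1946980, plus strand, 24 exons) was at 24.3, 26.2 and 31.5 CPM in WT and at 49.4, 56.7 and 49.8 CPM in hb34. The groups were far apart against their own spread, and the log2 fold change was 0.93 (SE 0.139). CHR17 (gene-AT5G18620, chromosome 5, 6195689 to 6202168, minus strand, 25 exons) was much lower, at 4.51, 4.39 and 7.56 CPM in WT and at 10.9, 13.6 and 9.1 CPM in hb34. Its groups did not overlap either, and the log2 fold change was 1.02 (SE 0.262). These differences lay 0.55 (CHR11) and 0.64 (CHR17) above the class median of 0.38, the widest margins among the 10 genes. Per base of exon CHR11 was 5.48 ± 0.98 times CHR17 in WT and 5 ± 0.713 times in hb34 (SD, n = 3 each), with overlapping ranges.

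CHR11 and CHR17 are near copies, and the longest run that their coding sequences share is shown because it bears on whether reads of the pair can be kept apart. The coding sequences were identical at 88.2% of 3162 aligned positions. The run is 38 bases long, at chr3:1944029-1944066 (plus strand) in CHR11 and chr5:6198975-6199012 (minus strand) in CHR17, in RefSeq's TAIR10.1. No window of 50 exon bases of either gene occurred elsewhere in the genome.
Shared run: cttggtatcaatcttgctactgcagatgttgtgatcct

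The 250 bases before the annotated starts of the pair are shown next, because they differ in the letters ATTA, a core that homeodomain proteins commonly bind. Whether these letters bear on the difference between hb34 and WT was not tested. Capitals mark ATTA or, for the other strand, TAAT, and also TGGGCC or, for the other strand, GGCCCA, known as site II. Matches may overlap each other. The windows, from RefSeq's TAIR10.1, lie at chr3:1940657-1940906 (plus strand) and chr5:6202169-6202418 (minus strand) and read 5′ to 3′ along the gene.
CHR11: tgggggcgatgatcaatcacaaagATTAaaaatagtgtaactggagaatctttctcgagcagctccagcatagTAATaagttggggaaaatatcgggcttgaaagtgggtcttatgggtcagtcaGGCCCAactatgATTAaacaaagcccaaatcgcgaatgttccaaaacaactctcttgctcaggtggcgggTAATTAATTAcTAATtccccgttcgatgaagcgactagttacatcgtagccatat
CHR17: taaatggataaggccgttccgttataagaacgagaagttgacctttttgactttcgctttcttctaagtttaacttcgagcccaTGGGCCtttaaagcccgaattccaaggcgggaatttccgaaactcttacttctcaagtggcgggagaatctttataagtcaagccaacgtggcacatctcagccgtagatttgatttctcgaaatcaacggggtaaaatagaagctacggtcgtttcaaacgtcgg

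The window of CHR11 held 8 matches to ATTA on either strand and that of CHR17 held 0, and each held 1 match to site II. The letters ATTA were in the windows of the 9 genes other than CHR17 and in 97.6% of the windows of 27443 protein-coding genes. The median over those 27443 windows was 5 matches. Site II was in the windows of SYD, CHR12, CHR11 and CHR17 and in 13.6% of all. The letters TATAAA were in 5 of the 10 windows (SYD, BRM, CHR17, PKL and CHR5) and in 47.4% of all windows, searched on both strands. Exons of other genes overlap the window of INO80 by 250 bases and that of DDM1 by 85 bases. A match is a run of letters, not a site shown to be bound.

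PKL and CHR5 are ATPases of the CHD type. PKL keeps embryonic genes silent in seedlings, and CHR5 acts on seed genes in embryos. PKL (gene-AT2G25170, chromosome 2, 10713807 to 10724106, plus strand, 33 exons) was at 25.6, 24.4 and 35.5 CPM in WT and at 49.4, 49.1 and 41.5 CPM in hb34. The groups were apart, and the log2 fold change of 0.71 (SE 0.173) was near the median of 0.61 of the 704 other genes with 4000 to under 6000 bases. CHR5 (gene-AT2G13370, chromosome 2, 5544054 to 5556560, minus strand, 31 exons) was at 12, 15.7 and 19.7 CPM in WT and at 28.6, 44.8 and 27.5 CPM in hb34. Here hb34 replicate 2 stood well above the rest, and the log2 fold change was 1.09 (SE 0.252) against a class median of 0.85. Among the seed genes that PKL keeps silent, LEC1 and ABI3 had 0 counts in every library, and LEC2 had 2 counts in WT replicate 1, 2 in hb34 replicate 2 and 0 elsewhere. FUS3, a seed regulator that could be tested, averaged 0.71 ± 0.124 CPM in WT against 1.51 ± 0.334 in hb34 (SD, n = 3 each) and did not pass (log2 fold change 1.09, SE 0.339, edgeR adjusted p = 0.0884).

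INO80 is the motor of a complex that moves nucleosomes and serves DNA repair. INO80 (gene-AT3G57300, chromosome 3, 21199150 to 21207893, plus strand, 25 exons) was at 22, 23.3 and 33.4 CPM in WT and at 53.4, 52.5 and 49.1 CPM in hb34. The hb34 libraries were close together and all far above WT replicate 3. The log2 fold change was 0.98 (SE 0.175) against a class median of 0.61.

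DDM1, which keeps DNA methylation and silencing on transposons, did not share the pattern. DDM1 (gene-AT5G66750, chromosome 5, 26648897 to 26653191, plus strand, 16 exons) was at 3.6, 3.02 and 5.31 CPM in WT and at 3.54, 5.17 and 2.62 CPM in hb34. The groups overlapped, and counts were low, at 51 to 104 a library. The log2 fold change was -0.09 (SE 0.32), and it changed sign, to 0.2 without WT replicate 3 and to 0.12 without hb34 replicate 3. Per base of exon, INO80 was 3.5 ± 0.458 times DDM1 in WT and 7.65 ± 2.25 times in hb34 (SD, n = 3 each), and these ranges were apart. Dividing by length does not take out the rise of fold change with length. The class medians were 0.61 for INO80 and 0.14 for DDM1.

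MBD9 resembled the ATPases other than DDM1. MBD9 (gene-AT3G01460, chromosome 3, 173190 to 182454, plus strand, 10 exons) was at 6.31, 8.54 and 10.1 CPM in WT and at 17.3, 19.2 and 13.4 CPM in hb34. The groups did not overlap, and the log2 fold change was 1 (SE 0.219) against a class median of 0.85.

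At an adjusted p under 0.05 edgeR called 5 of the 10 genes higher (SYD, CHR11, CHR5, INO80 and MBD9) and 0 lower. At an unadjusted p under 0.05, 0 of the 10 were lower (13.3% of all tested genes), and DESeq2 and limma-voom each called 0 lower (5.81% and 2.33% of all). The background is 3.77% of all tested genes called higher, and 10.8% of those in the same range of exon lengths. By length class the share climbed, at 3.92% from 2000 bases, 7.67% from 3000, 18.5% from 4000 and 34% from 6000. SYD, BRM, CHR5 and MBD9 are in the longest class, so 10.8% is a low match for them. Since the genes were chosen with this comparison known, nothing is read from the count. Leaving out WT replicate 1 or WT replicate 2 gave a count of 0, with 8 of the 10 genes at an unadjusted p under 0.05 in each fit, where 18.4% and 19.1% of all tested genes were. Leaving out hb34 replicate 1 gave 2, beside 653 of all 18223 genes tested in that fit. Leaving out hb34 replicate 3 also gave 2, beside 274 of 18189. Without hb34 replicate 2, the library that stood apart, it was 5, beside 853 of 18162. The median log2 fold change of the 10 genes in that fit was 0.84.

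Across the genome the log2 fold change climbed with exon length. The median was -0.33 over 2210 tested genes with under 1000 bases of exon, -0.10 over 8394 genes with 1000 to under 2000 and 0.14 over 4921 genes with 2000 to under 3000. In the classes above, it was 0.38, 0.61 and 0.85. Of the longest class 34% were called higher, and of the shortest 0.95% were called higher and 6.15% lower. Spearman's rho between log2 fold change and exon length was 0.46 over the 17905 tested genes, a description, since the genes share the same 6 libraries. Exon GC content had a rho of 0.19. Of the 10 genes 9 lay above the median of their class, by 0.10 (PKL) to 0.64 (CHR17), and DDM1 lay below it (-0.23). The class quartiles were -0.11 to 0.42 from 2000 bases, 0.13 to 0.66 from 3000, 0.37 to 0.86 from 4000 and 0.60 to 1.16 from 6000. DDM1, CHR12, PKL, BRM, CHR5 and MBD9 lay between the quartiles of their class. SYD, CHR11, CHR17 and INO80 lay above them. The classes are wide, and that of SYD, with 11171 bases, has no upper limit, so a class median need not match a gene's own length.

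**Figure D2:**
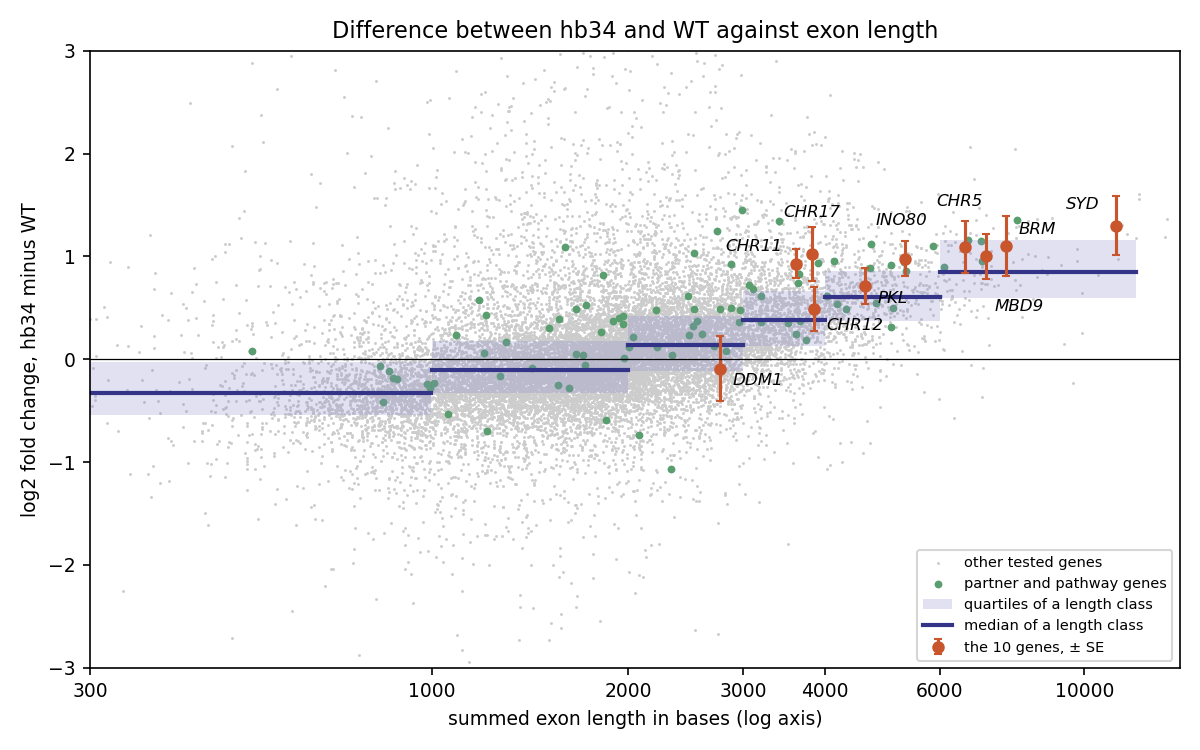
Log2 fold change (hb34 minus WT) against exon length (log axis) for tested genes, with the median and quartiles of 6 length classes, the partner genes, and the 10 genes with their SE; 184 tested genes lie outside the axes. The class medians climb from -0.33 to 0.85, and 9 of the 10 genes sit above the median of their class.

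The same trend set single libraries apart, within WT too. In the class of at least 6000 bases, the median deviation of log2 CPM from a gene's mean over the 6 libraries was -0.59, -0.58 and -0.11 for WT and 0.47, 0.71 and 0.16 for hb34, in the order of the replicate numbers. For the 10 genes the median deviation was -0.73, -0.54 and -0.14 in WT and 0.45, 0.66 and 0.2 in hb34. The libraries stood in the same order in both, and of the pairs across the groups WT replicate 3 and hb34 replicate 3 were the nearest.

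**Figure D3:**
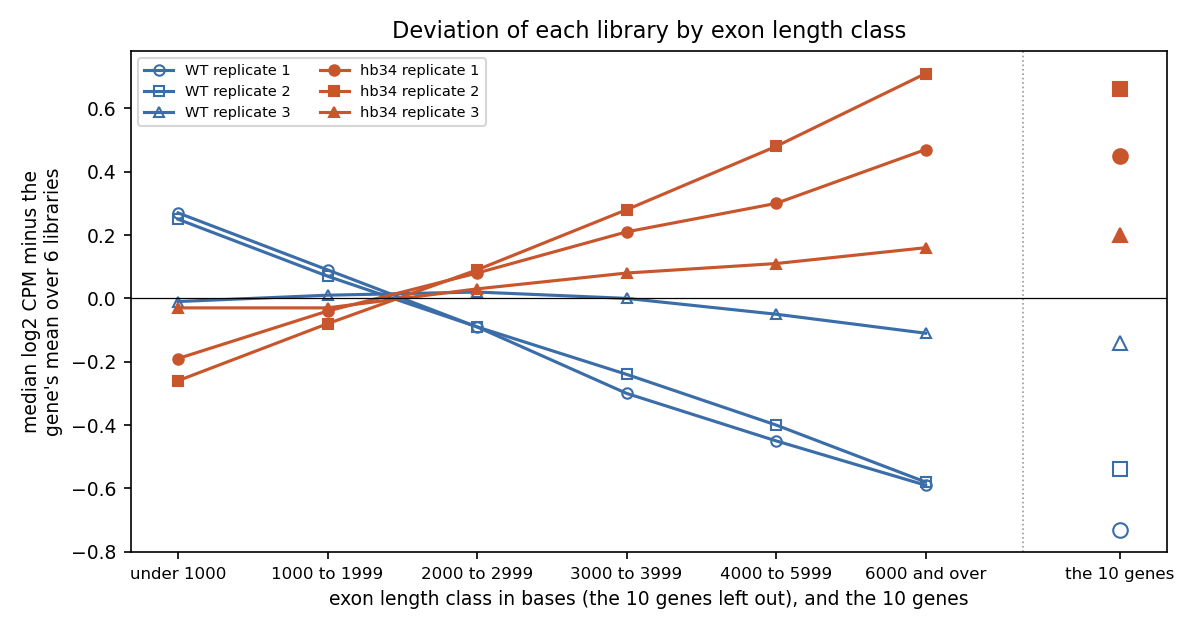
Median deviation of log2 CPM from the gene's mean over 6 libraries, for each library in 6 exon length classes without the 10 genes, and for the 10 genes. The libraries fan out with length, to -0.59 in WT replicate 1 and 0.71 in hb34 replicate 2, and stand in the same order for the 10 genes.

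With each library's trend on exon length taken out as an offset in the same fit, the median log2 fold change of the 10 genes was 0.15. SYD was at 0.07 (SE 0.136), BRM at 0.15 (SE 0.152), MBD9 at 0.13 (SE 0.144) and CHR5 at 0.26 (SE 0.149). PKL was at 0.14 (SE 0.107), CHR12 at 0.05 (SE 0.171) and DDM1 at -0.30 (SE 0.285). The largest values left were those of CHR17 at 0.58 (SE 0.188), CHR11 at 0.52 (SE 0.0983) and INO80 at 0.33 (SE 0.122). CHR11 was the 1 gene of the 10 still called, beside 1.84% of all tested genes called higher. The length trend separates the groups much as genotype does, so the offset also removes any genotype difference that goes with length, and these cannot be told apart.

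**Figure D4:**
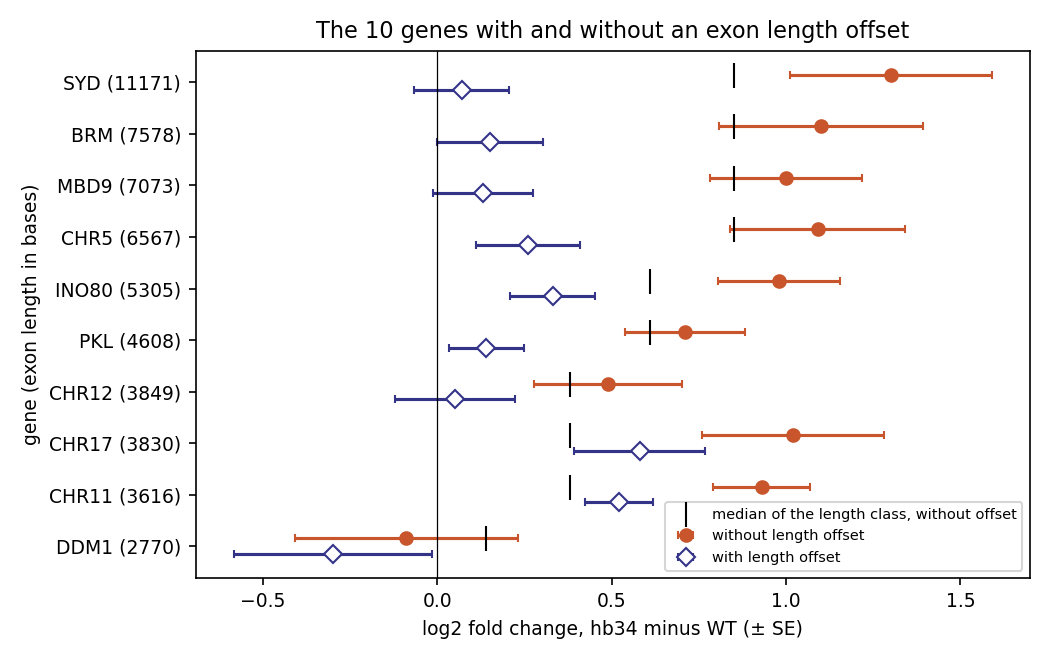
Log2 fold change (hb34 minus WT) of the 10 genes without (circles) and with (diamonds) the exon length offset, each with its SE, and the median of the gene's length class (ticks). With the offset CHR17, CHR11 and INO80 stand at 0.58, 0.52 and 0.33, and SYD, BRM and MBD9 at 0.15 or less.

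Levels can be compared between genes only per length, here as mean CPM per kb of exon (SD, n = 3 each). In WT CHR11 was highest (7.56 ± 1.02), followed by PKL (6.18 ± 1.33), INO80 (4.95 ± 1.18), CHR12 (4.06 ± 1.14) and CHR5 (2.41 ± 0.586). Below them came BRM (1.81 ± 0.452), DDM1 (1.44 ± 0.43), CHR17 (1.43 ± 0.47), MBD9 (1.17 ± 0.267) and SYD (0.992 ± 0.191). The ranges of neighbours in this order all overlapped. In hb34 the first 6 genes stood in the same order, from CHR11 (14.4 ± 1.13) to BRM (3.89 ± 1.43), and DDM1 (1.36 ± 0.466) was lowest. There, neighbours did not overlap after CHR11, after INO80 and between MBD9 and DDM1.

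Partners and pathway genes of the 10 were taken from 9 lists by function, with 108 genes, of which 89 could be tested. By edgeR 9 of the 89 rose and 0 fell, beside 3.77% and 2.50% of all tested genes. At an unadjusted p under 0.05 the counts were 35 and 3, beside 16.5% and 13.3% of all tested genes. DESeq2 called 21 higher and 2 lower (9.27% and 5.81% of all genes with an adjusted p), and limma-voom called 9 and 1 (3.36% and 2.33% of all). The median log2 fold change of the 89 was 0.37. It ranged from -0.18 for 8 genes under 1000 bases, the H2A.Z genes HTA8 and HTA9 among them, to 1.15 for 5 genes of at least 6000 bases. Leaving out WT replicate 1 or WT replicate 2 gave 0 that passed as higher, beside 1 of all tested genes in each fit. Leaving out hb34 replicate 3 gave 4, beside 274 of all tested genes. With the length offset 4 passed, namely FHA2, CHR19, MBD10 and MBD13, beside 1.84% of all tested genes.

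Among SWI/SNF subunit genes 2 of 25 rose. They were AT5G55040, a bromodomain gene (log2 fold change 0.94, SE 0.205, edgeR adjusted p = 0.043), and AT5G07940 (0.86, SE 0.186, adjusted p = 0.0413), and the median of the 25 was 0.48. Of 5 ISWI partners RLT1, whose DDT-domain protein works with CHR11 and CHR17, rose from 12.4 ± 3.73 to 26.5 ± 2.64 CPM (SD, n = 3 each), a log2 fold change of 1.1 (SE 0.216, edgeR adjusted p = 0.0336). Of 12 SWR1 and H2A.Z genes PIE1, the ATPase of SWR1, rose from 7.04 ± 1.76 to 13.8 ± 1.73 CPM (SD, n = 3 each), a log2 fold change of 0.96 (SE 0.21, edgeR adjusted p = 0.0426). Of 3 INO80 partners AT3G45830 rose, from 11.4 ± 0.314 to 24.8 ± 4.42 CPM (SD, n = 3 each), with a log2 fold change of 1.12 (SE 0.162, edgeR adjusted p = 0.0169). With the length offset none of these 5 genes passed: AT5G55040 was at 0.47, AT5G07940 at 0.18, RLT1 at 0.38, PIE1 at 0.15 and AT3G45830 at 0.51.

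Of 14 other SNF2-family ATPase genes CHR19 rose, from 28.4 ± 4.16 to 67.8 ± 15 CPM (SD, n = 3 each), a log2 fold change of 1.25 (SE 0.189, edgeR adjusted p = 0.0175). It lies on chromosome 2 at 523223 to 527068, and the 247 tested genes in the first 2 Mb of that chromosome had a median of 0.95. PKR1, a CHD relative of PKL, was at 7.26, 5.87 and 10.6 CPM in WT and at 19.4, 29.3 and 12.3 CPM in hb34 and did not pass (1.35, SE 0.347, edgeR adjusted p = 0.0593). PKR2 had 0 counts in every library, where 3 counts correspond to 0.153 to 0.178 CPM. Of 10 other MBD genes 2 rose: MBD13 from 3.39 ± 0.72 to 9.28 ± 2.16 CPM and MBD10 from 23.7 ± 3.72 to 41.9 ± 5.73 CPM (SD, n = 3 each). Their log2 fold changes were 1.45 (SE 0.251, edgeR adjusted p = 0.0249) and 0.82 (SE 0.167, edgeR adjusted p = 0.0362).

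Of 7 DNA methylation genes 0 passed with edgeR, with 3 at an unadjusted p under 0.05 on the higher side and 0 on the lower. MOM1, a silencing factor, had the smallest p (log2 fold change 1.16, SE 0.313, edgeR adjusted p = 0.0657), and passed without WT replicate 3. Of 10 Polycomb and trithorax genes SWN, a histone H3 lysine methyltransferase gene, rose from 20.5 ± 7.24 to 52 ± 4.74 CPM (SD, n = 3 each), a log2 fold change of 1.34 (SE 0.254, edgeR adjusted p = 0.0312), and with the length offset it was at 0.98 and did not pass. Of 15 genes reported to depend on these remodellers 3 could be tested and 0 passed with edgeR (unadjusted p under 0.05 in 1 that was higher and 0 that were lower). WUS, a meristem gene, and CUC2, an organ boundary gene, had 0 counts in all libraries. Of the 9 partner genes that rose, CHR19, MBD13 and AT3G45830 passed when any library other than WT replicate 1 or 2 was left out. The others also missed the threshold without WT replicate 3 (AT5G55040, AT5G07940 and MBD10), without hb34 replicate 1 (AT5G07940 and RLT1) or without hb34 replicate 3 (AT5G55040, AT5G07940, RLT1, PIE1, MBD10 and SWN).

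The genes outside the lists whose centred log2 CPM over the 6 libraries came nearest to the median profile of the 10 were long as well, with 3526 to 6958 bases of exon. By root mean square distance, among 15363 candidates, they were AT1G48120 (0.046), AT1G77800 (0.0587), JMJ14 (0.0603), MOR1 (0.0646) and AT3G16940 (0.0677). RefSeq describes AT1G77800 as a PHD finger protein and AT3G16940 as a calmodulin-binding transcription activator. JMJ14 is a histone H3 demethylase, and MOR1 organizes microtubules. Among the 10 genes MBD9 (0.0951), CHR11 (0.111) and INO80 (0.12) lay nearest to the profile and DDM1 (0.537) farthest.

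Shared sequence can affect the counts of some of the 10 genes. Of 9510 windows of 50 exon bases in SYD 2.8% occurred elsewhere in the genome, as did 0.198% of 5048 in CHR5 and 0 in the other 8 genes. Exons overlap a gene on the other strand by 37 bases in BRM, 65 in CHR17, 2 in PKL, 66 in INO80 and 59 in MBD9. Whether strand was used in counting, and how reads with several matches were treated, is not stated in the labels or headers.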

How the data were processed

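The 6 deposited tables, 1 for each library, hold raw counts over the exons of each gene and its exon length, per the file headers. The submitters' processing notes name HISAT2 2.1.0, DESeq2 1.30.1 and TAIR10 without roles, and no source used here gives the counting program. Coordinates and sequences are from RefSeq's TAIR10.1, counted from 1.

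Sample titles give the groups. After filterByExpr (minimum count 10, total 15) and TMM scaling, edgeR 4.0.16 (R 4.3.3; glmQLFit, legacy FALSE) was fitted with genotype alone and its quasi-likelihood F test, two-sided, was adjusted over 17905 genes (Benjamini-Hochberg, threshold 0.05). The log2 CPM have a prior count of 2. Standard errors are the unshrunk coefficient over the square root of F. The length offset is each library's loess trend (span 0.5) of log2 CPM deviation on log2 exon length, fitted where the mean log2 CPM was 1 or more.

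The 10 genes and all lists were chosen with earlier results of these data known. Named beside the 10 are HB34; from each partner list up to 4 genes past the threshold, otherwise the gene with the smallest p; CHR23, PIE1, PKR1 and PKR2; and the 5 genes of nearest profile with a mean log2 CPM of 1 or more. LHCB3, PHO1, PYK10, FHA2, HTA8, HTA9, LEC1, LEC2, ABI3, WUS, CUC2, ARP7, ULT1 and UBQ10 were named after their values were seen. Alternatives were other scalings and filters, DESeq2 1.42.0, limma-voom (limma 3.58.1), robust dispersions, the length offset, a replicate block and leaving out each library. The floor of 3 counts covers counting error only.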

Additional observations from a re-analysis of the deposited data

How the results depend on the processing

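The median log2 fold change of the 10 genes was 0.15 with the length offset, 0.14 with a replicate block and the length offset, and 0.84 to 1.19 when each library was left out in turn. Upper quartile scaling moved the median of all tested genes to -0.08 and that of the 10 genes to 0.9, which left their difference at 0.98. A scaling moves all genes of a library together, so that difference could hardly change. Of the 10 genes 8 were called higher with DESeq2, 3 with limma-voom and 1 with the length offset, beside 9.27%, 3.36% and 1.84% of all. When single libraries were left out 0 to 5 were called higher, beside 1 to 853 of all tested genes.

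Over all genes upper quartile scaling called 536 higher and 615 lower, library size alone 743 and 350, DESeq2 1657 and 1038, the length offset 329 and 229, and fits without single libraries 1 to 853 and 2 to 503. Partner genes called higher numbered 21 with DESeq2, 4 with the length offset and 0 to 10 without single libraries. Those called lower numbered 1 with DESeq2 size factors, 2 with upper quartile scaling, 1 with the filter at a CPM of 1, 2 with DESeq2, 1 with limma-voom, 1 with robust dispersions and 0 to 1 without single libraries. Of 6 reference genes UBQ10 alone was called higher (log2 fold change 0.81), and 0 were with DESeq2 size factors, with the length offset and in each fit without a library.

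Same-numbered libraries had correlations of -0.10, -0.15 and -0.35 in log2 CPM centred within each group. With 3 libraries a group, such values cannot decide whether the replicate numbers pair the libraries. With the replicate block 2 genes were called higher and 3 lower, and with the block and the length offset 2 and 2; of the 10 genes, the partners and the reference genes 0 were called higher in either fit. Without single libraries DDM1 ranged from -0.38 to 0.2. Of the other genes with alternatives computed, 0 changed sign in the 17 alternatives. The offset removes the length trend by construction, and the cause of that trend and of the differences was not tested. The low counts of DDM1 and FUS3 limit what can be said of them.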

Other observations

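Of the 89 tested partner genes 38 had every hb34 library above every WT library, beside 17.8% of all tested genes, and 6 had every hb34 library below, beside 17.5% of all. Among the 6 were ARP7, an actin-related protein gene of remodelling complexes, and ULT1, a trithorax-type regulator of meristem size; neither passed. ARP7 averaged 18.4 ± 0.741 CPM in WT against 12.2 ± 1.37 in hb34 (SD, n = 3 each), a log2 fold change of -0.59 (SE 0.14, edgeR adjusted p = 0.0514). ULT1 averaged 4.99 ± 1.24 CPM against 2.38 ± 0.58 (SD, n = 3 each), a log2 fold change of -1.07 (SE 0.277, edgeR adjusted p = 0.0606). With the length offset their values were -0.58 and -1.18.

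Among tested genes of at least 3000 bases of exon, the median log2 fold change was 0.27 for the 396 genes with under 40% GC in their exons and 0.38 to 0.54 in the 4 classes of higher GC content.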
